A study of Arabidopsis thaliana with 6 samples.

Results

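The genes described here are 49 Arabidopsis genes of DNA replication and the S phase, out of 24292 genes with an identifier in the table of counts, and they were followed in RNA-seq libraries of shoot apices labelled WT, *val1* and *val2*. They were picked by gene identifier for what their products do, by a rule that uses no measured value but was written with earlier results of these data known. All 49 were present and passed the filter on low counts, as did 21140 genes in all. Sorted by role, they comprise 12 genes of the replicative helicase, 6 of origin licensing, 9 of DNA synthesis, 5 *RPA1* genes, 3 of ribonucleotide reductase, 6 regulators, 3 of chromatin assembly and 3 of DNA methylation, with the rest in DNA repair.

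The 6 libraries came in 2 biological replicates each of WT (Col-0), of *val1*, which carries the insertion allele *val1-2*, and of *val2*, whose labels give the insertion allele *val2-1*, both in the Col-0 background. Each library was made from polyadenylated RNA of 0.5 g of apices, dissected from plants 6 wk of age that had grown in SD (8 h light and 16 h dark) at 22 °C, so a library pools several plants. VAL1 and VAL2 are B3-domain repressors that bind the RY motif and recruit Polycomb and histone deacetylase complexes, and the study asked how the apex transcriptome changes without each of them. Each of the other genotypes rests on 1 allele, and both were compared with the same 2 WT libraries.

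A plant cell copies its nuclear DNA once per cycle. In G1, the origin recognition complex, CDC6 and CDT1 load the MCM2-7 ring onto DNA, which is called licensing. In S phase, CDC45 and the GINS complex turn the ring into an active helicase, RPA coats the single strands that it opens, polymerase alpha starts each new strand, and polymerases delta and epsilon extend it with PCNA as their sliding clamp. Ribonucleotide reductase supplies the deoxynucleotides, CAF-1 puts histones on the new DNA, and MET1 and CMT3 restore its methylation. Many of these genes are transcribed shortly before S phase by E2F factors, which the D-type cyclins release from the retinoblastoma protein. In a shoot apex the cycling cells of the meristem and of young primordia carry such transcripts. Whether other cells of the tissue carried them too was not measured here.

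The libraries held between 22635808 and 33474422 counts. *VAL1* had 40.3 and 55.4 CPM (counts scaled to library size by the TMM method) in the WT libraries, 12.5 and 15.7 in *val1*, and 32.7 and 39.0 in the *val2*-labelled libraries, so it was lower in the libraries labelled with its insertion (log2 fold change −1.76 ± 0.17 SE, adjusted p = 5.16e-05 by edgeR's quasi-likelihood test). *VAL2* had 39.9 and 40.9 CPM in WT, 36.1 and 39.1 in *val1*, and 149.8 and 163.9 in the *val2*-labelled libraries. Its transcript was thus higher, not lower, in the libraries labelled with its insertion, which goes against the label, and those 2 libraries are called the *val2*-labelled libraries throughout. The labels call the tissue shoot apical meristem. The meristem genes *STM* and *KNAT1* were at 45.5 to 70.7 CPM in every library, *CLV3* had at most 6 counts in any library, *WUS* had no value, and 8 mature leaf genes together took 14120 to 20145 CPM.

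The sequences that follow show what a set of the promoters has in common, and the choice of genes did not use it. The motif searched was the E2F site in 4 spellings, TTTCCCGC, TTTCGCGC, TTTGCCGC and TTTGGCGC, on both strands, from 250 bases before to 50 bases after the annotated gene start, in the TAIR10.1 reference of RefSeq, whose nuclear chromosomes are those of TAIR10. A match was found at 17 of the 49 genes (34.7%), against 381 of 20098 tested protein-coding genes (1.90%). The 17 hold 20 matches, of which 18 start within 75 bases of the gene start, and no match overlaps another. A match is a match of letters and not a measured binding site. One window is shown for each of 7 genes from several roles, read along the gene's strand, with the match in capitals.
*MCM2*, chr1:16970189-16970218, plus strand, position −14: tggcgccaataTTTCCCGCctaatcgacga
*MCM5*, chr2:3527501-3527530, minus strand, position −19: cggcccatcagTTTCCCGCcacattgttcc
*MCM6*, chr5:18010695-18010724, minus strand, position −46: tatactttttaGCGGGAAAatgttagagga
*ORC2*, chr2:15758581-15758610, plus strand, position −9: aagaaaaacgcGCGGGAAAattgagagact
*ICU2*, chr5:26776891-26776920, plus strand, position −51: atcgtgtcgatTTTCCCGCcatctccattt
*RPA1D*, chr5:24552863-24552892, minus strand, position −26: caaaacaaaatGCGCCAAAaaaatggaaag
*FAS1*, chr1:24324140-24324169, minus strand, position −67: tcaaaaccttgGCGGGAAAatcaacgaccc

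Positions count from the gene start, with the base before it as −1, and give the first base of the match. By role, the motif was at 6 of 12 helicase genes, 2 of 6 licensing genes, 3 of 9 synthesis genes, 2 of 5 *RPA1* genes, 1 of 3 ribonucleotide reductase genes, 2 of 3 chromatin genes and 1 of 3 methylation genes. None of the 6 regulators had a match in this window. The RY motif TGCATG, which the VAL proteins are known to bind, was in the same window of 3 of the 49 genes (6.12%; *MCM7*, *TTN10* and *E2FA*), against 8.45% of all tested protein-coding genes.

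**Figure D1:**
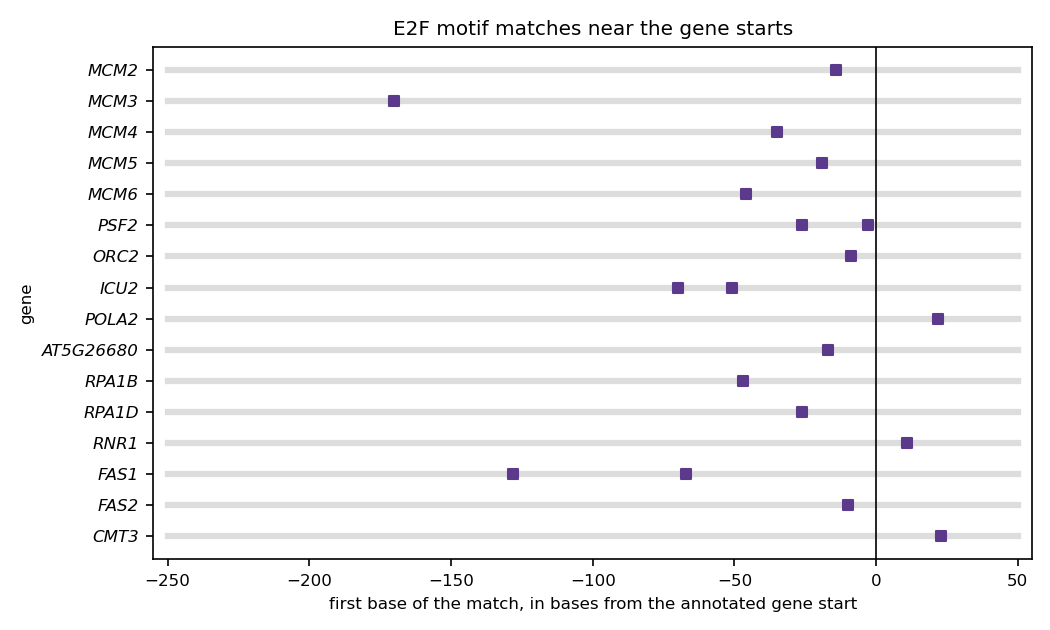
Position of each E2F motif match (square) in 16 of the 17 genes that have one, in bases from the annotated gene start (vertical line), with the searched window in grey. Of the 19 matches shown, 17 start within 75 bases of the gene start, and *PSF2*, *ICU2* and *FAS1* have 2 each.

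Nearly the whole set was higher in *val1* and in the *val2*-labelled libraries than in WT. In *val1*, 43 of the 49 genes rose and none fell (edgeR's quasi-likelihood test, adjusted p below 0.05), where 23.6% of all tested genes rose and 22.1% fell. In the *val2*-labelled libraries, 39 of 49 rose and none fell, where 8.69% of all tested genes rose and 10.0% fell. The median log2 fold change of the 49 genes was 0.85 in *val1* and 0.73 in the *val2*-labelled libraries, beside 0.04 and 0.00016 over all tested genes. Added together, the genes took 1183 and 1153 CPM in WT, 1882 and 2033 in *val1*, and 1896 and 1972 in the *val2*-labelled libraries, with no overlap between either of them and WT. Genes that rose at least 2-fold (DEGs) numbered 19 in *val1*, where 5.89% of tested genes were such DEGs, and 8 in the *val2*-labelled libraries, where 0.918% were. None of the 49 was a DEG that fell, although 9.81% of tested genes were in *val1* and 2.27% in the *val2*-labelled libraries.

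Both *val1* libraries were above both WT libraries for 45 of the 49 genes (40.0% of all tested genes), and both *val2*-labelled libraries were above WT for 46 (31.1%). Only *TIL1* in *val1* had both libraries below WT (34.3% of all tested genes), and none of the 49 did in the *val2*-labelled libraries (30.8%). A total of 38 genes rose in both comparisons, which share the WT libraries. Another 5, *CDC45*, *ORC1A*, *RPA1C*, *RPA1E* and *CYCA3;2*, passed the test in *val1* and not in the *val2*-labelled libraries, and 1, *TIL1*, the other way round. Tested directly, the difference between *val1* and the *val2*-labelled libraries passed for each of these but *CYCA3;2* (adjusted p = 0.0701). The remaining 5, *TTN10*, *RFC1*, *RPA1A*, *E2FB* and *E2FC*, passed the test in neither. In bulk tissue, a larger number of cells that transcribe these genes and more RNA per cell cannot be told apart.

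**Figure D2:**
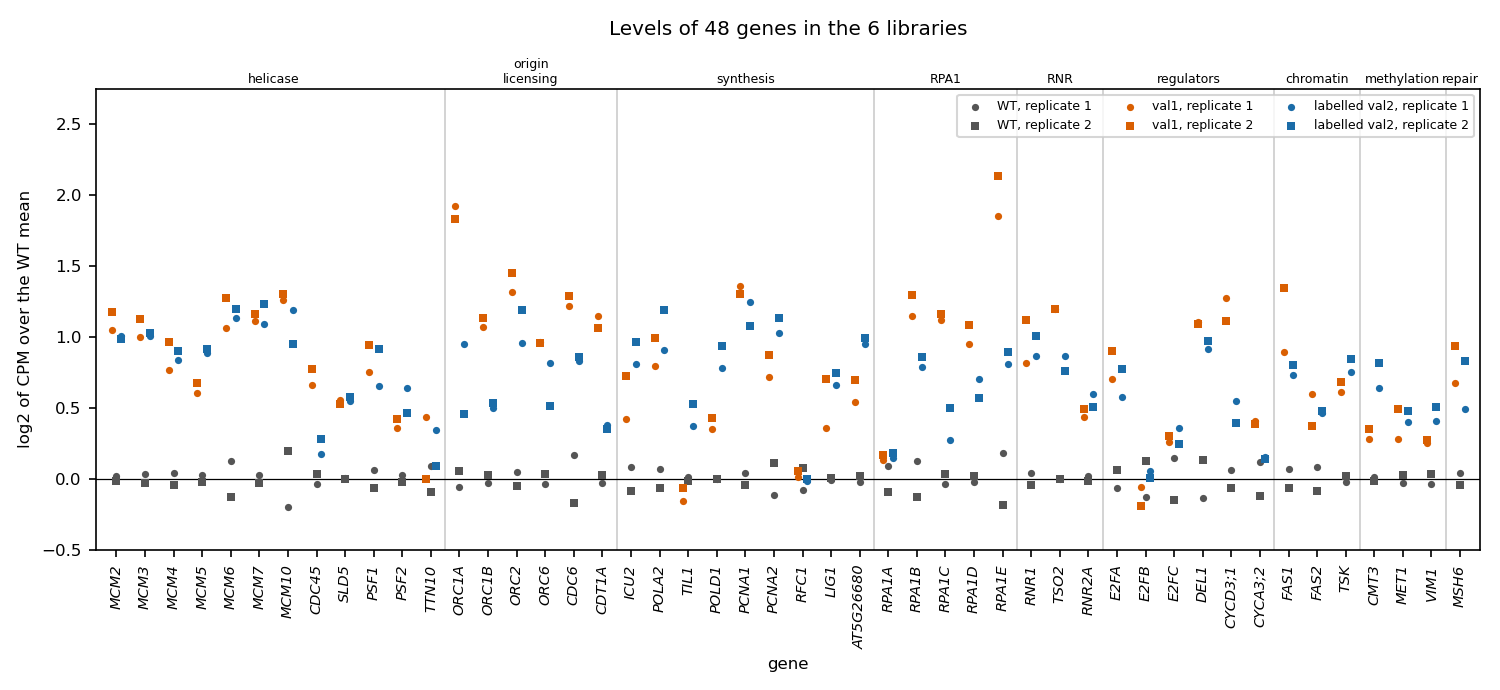
Level of 48 of the 49 genes in each library, as the log2 of the CPM over the mean CPM of the 2 WT libraries, by role from left to right, with circles for replicate 1 and squares for replicate 2. Both *val1* libraries lie above both WT libraries for 44 of the genes shown and both *val2*-labelled libraries for 45.

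**Figure D3:**
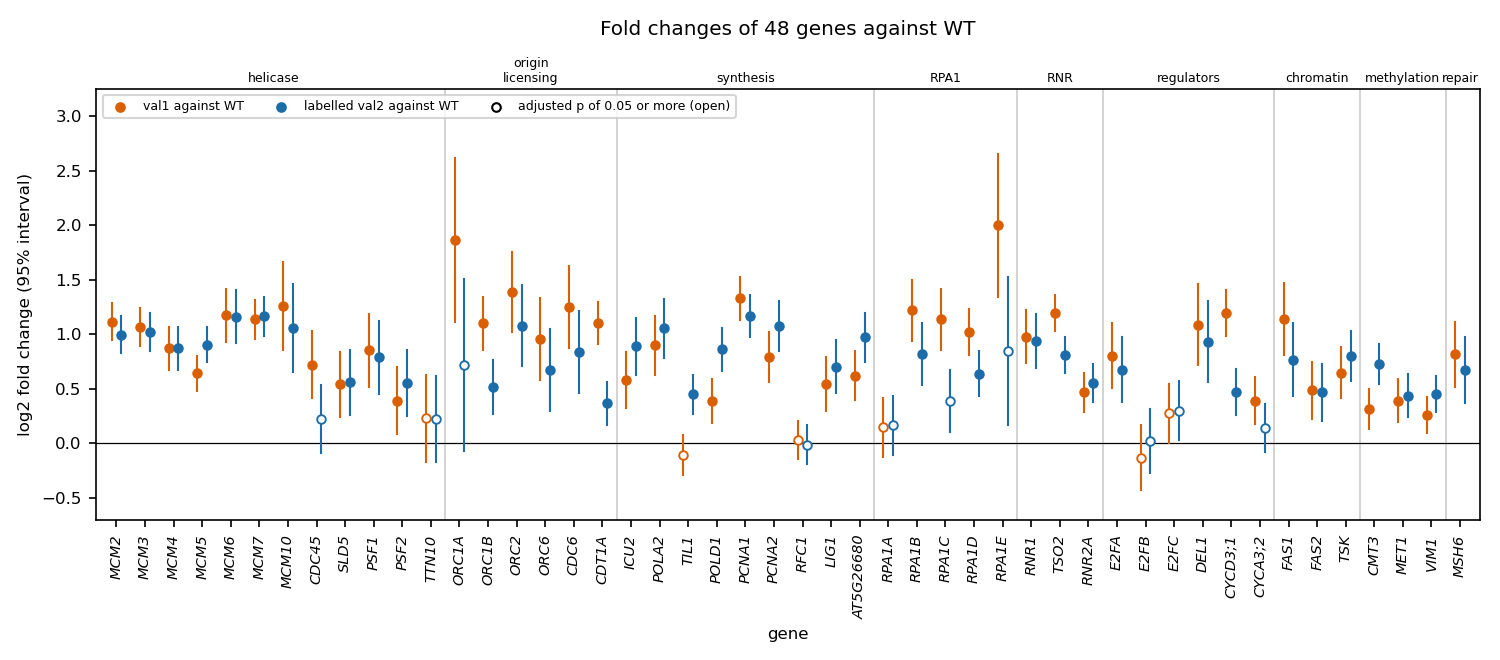
Log2 fold change against WT of 48 of the 49 genes in *val1* (orange) and in the *val2*-labelled libraries (blue), with 95% intervals as vertical lines and open circles where the adjusted p was 0.05 or more. In *val1* 42 circles are filled and in the *val2*-labelled libraries 38, all of them above 0.

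All 6 subunits of the MCM2-7 ring, the motor of the helicase, rose in *val1* and in the *val2*-labelled libraries, and their fold changes lay close together. *MCM2* (AT1G44900) was at 40.2 and 39.2 CPM in WT, 82.2 and 89.8 in *val1*, and 80.0 and 78.5 in the *val2*-labelled libraries. *MCM3* (AT5G46280) was at 36.0 and 34.5 CPM in WT, 70.4 and 76.9 in *val1*, and 70.8 and 72.0 in the *val2*-labelled libraries. For both genes the *val1* and *val2*-labelled libraries lay well clear of WT. Both *val1* libraries were above both *val2*-labelled libraries for *MCM2*, while for *MCM3* they overlapped, and the direct difference passed for neither (adjusted p = 0.248 and 0.676). *MCM7* (AT4G02060) had 41.0 and 39.5 CPM in WT, 87.0 and 90.2 in *val1*, and 85.8 and 94.6 in the *val2*-labelled libraries. *MCM6* (AT5G44635) had 26.3 and 22.0 CPM in WT, 50.4 and 58.4 in *val1*, and 52.7 and 55.3 in the *val2*-labelled libraries. *MCM4* (AT2G16440) rose by 0.87 ± 0.09 (log2, SE) in *val1* and 0.87 ± 0.09 in the *val2*-labelled libraries, the same to 2 decimals. *MCM5* (AT2G07690) was the exception among the 6, since it rose less in *val1* than in the *val2*-labelled libraries, from 39.8 and 38.4 CPM in WT to 59.6 and 62.3 in *val1* and 72.4 and 73.9 in the *val2*-labelled libraries. Over the 6 subunits, log2 fold changes ran from 0.64 (*MCM5*, adjusted p = 0.000103) to 1.17 (*MCM6*, adjusted p = 3.64e-05) in *val1*, and from 0.87 (*MCM4*, adjusted p = 0.000554) to 1.16 (*MCM7*, adjusted p = 8.40e-05) in the *val2*-labelled libraries.

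The other helicase genes rose too, with 2 partial exceptions. *MCM10* (AT2G20980), which helps to start the helicase, went from 3.1 and 4.07 CPM in WT to 8.51 and 8.76 in *val1* and 8.09 and 6.88 in the *val2*-labelled libraries (log2 fold changes 1.26 ± 0.18 and 1.05 ± 0.18). *CDC45* (AT3G25100), which joins MCM2-7 and GINS in the active helicase, was nearer to WT in the *val2*-labelled libraries (6.58 and 7.08 CPM, against 5.68 and 5.98) than in *val1* (9.24 and 9.99). It rose in *val1* (0.72 ± 0.14, adjusted p = 0.00232), and its value in the *val2*-labelled libraries was 0.23 ± 0.14 (adjusted p = 0.288). Of the 4 GINS genes, *PSF1* (AT1G80190) rose by 0.85 ± 0.15 and 0.79 ± 0.15, *SLD5* (AT5G49010) by 0.54 ± 0.13 and 0.56 ± 0.13, and *PSF2* (AT3G12530) by 0.39 ± 0.13 and 0.55 ± 0.13. *TTN10* (AT1G19080), annotated as another GINS gene, had log2 fold changes of 0.23 ± 0.17 in both (adjusted p = 0.317 and 0.409). Of the 50-base words of its exons, 31.3% occur elsewhere in the genome, as do 13.0% of those of *SLD5*, so their counts can be shared with near-identical copies. The rises of *PSF2* and *SLD5* were the least certain, since *PSF2* in *val1* kept its call only when the library left out was *val2* replicate 2 (adjusted p up to 0.164, without WT replicate 2), and with DESeq2 the 2 genes passed in neither comparison with WT (adjusted p from 0.0524 to 0.191). Without 1 of the compared libraries, the rise in the *val2*-labelled libraries was also lost for *PSF1* (without WT replicate 2 or *val2* replicate 2, adjusted p = 0.0633 and 0.0548), for *SLD5* (any of the 4, up to 0.107) and for *PSF2* (any but *val2* replicate 2, up to 0.138), and that of *SLD5* in *val1* without WT replicate 2 (0.0533).

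Licensing genes showed the largest median rise of any role in *val1*, 1.18, against 0.70 in the *val2*-labelled libraries. All 6 rose in *val1* and 5 of 6 in the *val2*-labelled libraries. *ORC1A* (AT4G14700) and *ORC1B* (AT4G12620) encode 2 versions of the large subunit of the origin recognition complex, and both were highest in *val1*. *ORC1A* was scarce, at 0.596 and 0.646 CPM in WT, 2.35 and 2.21 in *val1*, and 1.2 and 0.851 in the *val2*-labelled libraries, and it was 3.64-fold higher in *val1* than in WT (log2 fold change 1.86 ± 0.33, adjusted p = 0.00178). *ORC1B* was at 8.82 and 9.15 CPM in WT, 18.8 and 19.7 in *val1*, and 12.7 and 13.0 in the *val2*-labelled libraries. Per transcript length, *ORC1B* was the more abundant of the pair in every genotype, at a mean of 4.87 TPM (the deposited level scaled to transcript length and library) against 0.356 in WT and 11.8 against 1.51 in *val1*. The lowest count behind *ORC1A* was 15, its exons share 2.14% of their 50-base words with other places in the genome, and 2 genes overlap it on the other strand.

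*ORC2* (AT2G37560), another subunit of the complex, was at 3.42 and 3.2 CPM in WT, 8.23 and 9.02 in *val1*, and 6.43 and 7.56 in the *val2*-labelled libraries, and it was a DEG in both (1.38 ± 0.16 and 1.08 ± 0.16). *ORC6* (AT1G26840) rose by 0.96 ± 0.16 and 0.67 ± 0.16. *CDC6* (AT2G29680), which acts with the origin complex to load the MCM ring, had 4.09 and 3.23 CPM in WT, 8.47 and 8.89 in *val1*, and 6.46 and 6.60 in the *val2*-labelled libraries. The level of *CDT1A* (AT2G31270), the partner of CDC6 in loading, separated the 3 genotypes, with 17.8 and 18.6 CPM in WT, 40.3 and 37.9 in *val1*, and 23.7 and 23.2 in the *val2*-labelled libraries. Its log2 fold change was 1.1 ± 0.09 in *val1* (adjusted p = 1.42e-05) and 0.37 ± 0.09 in the *val2*-labelled libraries (adjusted p = 0.0201). In the *val2*-labelled libraries, the calls of *CDT1A* and *ORC1B* were lost without any 1 of the 4 libraries compared (adjusted p up to 0.0944 and 0.0620), that of *ORC6* without any but *val2* replicate 2 (up to 0.153), and that of *CDC6* without any but WT replicate 1 (up to 0.0782).

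Genes of DNA synthesis had the opposite order, with a median log2 fold change of 0.58 in *val1* and 0.89 in the *val2*-labelled libraries. Of the 9, 7 rose in *val1* and 8 in the *val2*-labelled libraries. For polymerase alpha, which starts new strands, the catalytic subunit *ICU2* (AT5G67100) rose by 0.58 ± 0.11 and 0.89 ± 0.11. Its partner *POLA2* (AT1G67630) was at 19.6 and 17.9 CPM in WT, 32.6 and 37.3 in *val1*, and 35.2 and 42.7 in the *val2*-labelled libraries. *POLD1* (AT5G63960), the catalytic subunit of polymerase delta, rose by 0.39 ± 0.09 in *val1* and 0.86 ± 0.09 in the *val2*-labelled libraries. *TIL1* (AT1G08260), the catalytic subunit of polymerase epsilon, did not rise in *val1*. Its level was 74.2 and 72.8 CPM in WT, 66.0 and 70.4 in *val1* (−0.11 ± 0.08, adjusted p = 0.304), and 95.3 and 106 in the *val2*-labelled libraries (0.45 ± 0.08, adjusted p = 0.00623, and 0.0508 without WT replicate 2).

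Both genes for the sliding clamp rose in both comparisons with WT, in a different balance. *PCNA1* (AT1G07370) was at 23.1 and 21.8 CPM in WT, 57.5 and 55.3 in *val1*, and 53.3 and 47.5 in the *val2*-labelled libraries, and its log2 fold change of 1.33 ± 0.09 in *val1* (adjusted p = 5.22e-06) was a 2.51-fold rise. *PCNA2* (AT2G29570) was at 24.0 and 28.1 CPM in WT, 42.6 and 47.5 in *val1*, and 52.9 and 57.0 in the *val2*-labelled libraries (0.79 ± 0.10 and 1.08 ± 0.10). Mean TPM put the pair at 30.7 (*PCNA1*) and 33.9 (*PCNA2*) in WT, 87.2 and 66.5 in *val1*, and 71.9 and 74.9 in the *val2*-labelled libraries. *PCNA1* was thus the more abundant in both *val1* libraries (88.6 and 85.7 TPM against 62.7 and 70.3), while in WT and in the *val2*-labelled libraries the TPM ranges of the pair overlapped. *LIG1* (AT1G08130), a DNA ligase that seals nicks, rose by 0.54 ± 0.11 and 0.70 ± 0.11, and AT5G26680, annotated as a 5′-3′ exonuclease, by 0.62 ± 0.10 and 0.97 ± 0.10. *RFC1* (AT5G22010), the large subunit of the clamp loader, was flat, at 44.0 and 48.8 CPM in WT, 46.8 and 48.1 in *val1*, and 45.8 and 46.2 in the *val2*-labelled libraries.

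The 5 *RPA1* genes encode versions of the large subunit of the single-strand binding complex RPA. In *val1*, *RPA1B* (AT5G08020), *RPA1C* (AT5G45400), *RPA1D* (AT5G61000) and *RPA1E* (AT4G19130) were all DEGs, while *RPA1A* (AT2G06510) had a value of 0.15 ± 0.12 (adjusted p = 0.344). *RPA1E* had the largest rise of all 49 genes, from 0.914 and 0.711 CPM in WT to 2.92 and 3.54 in *val1*, with 1.41 and 1.5 in the *val2*-labelled libraries. That was a 3.99-fold rise in *val1* (2.00 ± 0.29, adjusted p = 0.000536), on counts that were as low as 22 in WT. *RPA1C*, which is known for a part in DNA repair, was at 7.43 and 7.82 CPM in WT, 16.5 and 17.1 in *val1*, and 9.20 and 10.8 in the *val2*-labelled libraries. *RPA1B* was at 10.4 and 8.73 CPM in WT, 21.1 and 23.4 in *val1*, and 16.5 and 17.3 in the *val2*-labelled libraries. *RPA1D* was at 19.4 and 20.0 CPM in WT, 38.1 and 41.8 in *val1*, and 32.1 and 29.3 in the *val2*-labelled libraries. In these libraries *RPA1B* (0.82 ± 0.12) and *RPA1D* (0.64 ± 0.09) rose, *RPA1C* had 0.39 ± 0.13 (adjusted p = 0.0635), *RPA1E* 0.85 ± 0.30 (adjusted p = 0.0824) and *RPA1A* 0.17 ± 0.12 (adjusted p = 0.376).

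All 3 genes of ribonucleotide reductase, the enzyme that makes deoxynucleotides, rose in both comparisons with WT. *TSO2* (AT3G27060), the main small subunit, was at 57.4 and 57.5 CPM in WT, 132 and 132 in *val1*, and 105 and 97.2 in the *val2*-labelled libraries (1.2 ± 0.07, adjusted p = 3.70e-06, and 0.81 ± 0.07, adjusted p = 0.000336). The large subunit *RNR1* (AT2G21790) rose by 0.98 ± 0.11 and 0.94 ± 0.11. The other small subunit, *RNR2A* (AT3G23580), rose by 0.47 ± 0.08 and 0.55 ± 0.08, the smallest rise of the 3 in both. On the TPM scale *TSO2* stood at a mean of 52.5 in WT, 136 in *val1* and 96.2 in the *val2*-labelled libraries, against 28.0, 43.7 and 42.8 for *RNR2A*.

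Of the 6 regulators, 4 rose in *val1* and 3 in the *val2*-labelled libraries. *CYCD3;1* (AT4G34160), a D-type cyclin that drives entry into S phase, was at 37.2 and 34.2 CPM in WT, 86.4 and 77.3 in *val1*, and 52.3 and 46.8 in the *val2*-labelled libraries. It rose by 1.2 ± 0.09 in *val1* (adjusted p = 1.30e-05) and by 0.47 ± 0.09 in the *val2*-labelled libraries (adjusted p = 0.00915, and 0.0787 and 0.0768 without WT replicate 2 or *val2* replicate 1). Of the 3 typical E2F factors, the activator *E2FA* (AT2G36010) rose by 0.80 ± 0.13 and 0.68 ± 0.13, the activator *E2FB* (AT5G22220) had −0.13 ± 0.13 and 0.03 ± 0.13, and *E2FC* (AT1G47870), mainly known as a repressor, had 0.28 ± 0.12 and 0.30 ± 0.12 (adjusted p = 0.0892 and 0.114). *DEL1* (AT3G48160), an atypical E2F that represses the switch to endoreduplication, was at 3.1 and 3.72 CPM in WT, 7.29 and 7.24 in *val1*, and 6.40 and 6.67 in the *val2*-labelled libraries. *CYCA3;2* (AT1G47210), an A-type cyclin of the S phase, rose by 0.39 ± 0.10 in *val1* (adjusted p = 0.00892, and 0.0789 without WT replicate 2) and had 0.14 ± 0.10 in the *val2*-labelled libraries. The call of *E2FA* in the *val2*-labelled libraries was lost without WT replicate 1 or *val2* replicate 2 (adjusted p = 0.0504 and 0.0609).

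The genes of chromatin assembly and DNA methylation all rose in both comparisons with WT. *FAS1* (AT1G65470), the large subunit of CAF-1, was at 15.3 and 13.9 CPM in WT, 27.1 and 37.1 in *val1*, and 24.2 and 25.5 in the *val2*-labelled libraries (1.14 ± 0.15 and 0.77 ± 0.15). *FAS2* (AT5G64630), its partner, rose by 0.49 ± 0.12 and 0.47 ± 0.11. *TSK* (AT3G18730), which takes part in the repair of replication damage, rose by 0.65 ± 0.10 and 0.80 ± 0.10. Among methylation genes, *MET1* (AT5G49160), the maintenance methyltransferase of CG sites, rose by 0.39 ± 0.09 and 0.44 ± 0.09, its cofactor *VIM1* (AT1G57820) by 0.26 ± 0.07 and 0.45 ± 0.07, and *CMT3* (AT1G69770), the methyltransferase of CHG sites, by 0.32 ± 0.08 and 0.73 ± 0.08. *MSH6* (AT4G02070), of mismatch repair, rose by 0.82 ± 0.13 and 0.67 ± 0.13. Several of these calls were lost when 1 library was left out. In *val1* this was so for *VIM1* (WT replicate 1, WT replicate 2 or *val1* replicate 2, adjusted p up to 0.116), *CMT3* (the same libraries, up to 0.0737) and *FAS2* (WT replicate 2 or *val1* replicate 1, up to 0.0674). In the *val2*-labelled libraries they were lost for *FAS2* (any but WT replicate 1, up to 0.132), *MET1* (any but *val2* replicate 1, up to 0.0668), and *MSH6* and *FAS1* (WT replicate 2 or *val2* replicate 2, up to 0.0686 and 0.0623).

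Compared directly, *val1* and the *val2*-labelled libraries did not differ in 1 direction across the set. By role, the log2 difference was above 0 for 6 of 6 licensing genes (median 0.50) and 4 of 5 *RPA1* genes (0.40). It was below 0 for 7 of 9 synthesis genes (median −0.28) and 3 of 3 methylation genes (−0.19). Of all 21140 tested genes, 10826 were above 0 and 10313 below. In these directions the test passed for 3 licensing, 4 *RPA1*, 3 synthesis and 1 methylation gene. The medians of the other roles ran from 0.007 (helicase) to 0.14 (regulators). Over the 49 genes the median log2 difference was 0.04, beside 0.01 over all tested genes. A total of 10 of the 49 genes were higher in *val1* and 5 were lower, where 17.7% of all tested genes were higher and 18.0% lower. The 10 genes higher in *val1* were *CDC45*, *ORC1A*, *ORC1B*, *CDT1A*, *RPA1B*, *RPA1C*, *RPA1D*, *RPA1E*, *TSO2* and *CYCD3;1*. The 5 lower in *val1* were *MCM5*, *TIL1*, *POLD1*, AT5G26680 and *CMT3*. At least a 2-fold difference was reached by 2 genes, *ORC1A* (1.14 ± 0.31, adjusted p = 0.0193) and *RPA1E* (1.15 ± 0.27, adjusted p = 0.00946), where 5.17% of tested genes were DEGs higher in *val1*. Both *val1* libraries were above both *val2*-labelled libraries for 20 genes (35.4% of all tested genes) and below them for 12 (33.7%). None was a DEG lower in *val1*, where 6.94% of tested genes were.

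The differences with the firmest support were those of *CDT1A* (0.74 ± 0.08, adjusted p = 0.0002), *CYCD3;1* (0.72 ± 0.09, adjusted p = 0.00032), *TIL1* (−0.56 ± 0.08, adjusted p = 0.000677), *RPA1C* (0.75 ± 0.12, adjusted p = 0.00133), *ORC1B* (0.58 ± 0.10, adjusted p = 0.00249), *POLD1* (−0.47 ± 0.09, adjusted p = 0.0029), *TSO2* (0.39 ± 0.07, adjusted p = 0.00293) and *CMT3* (−0.41 ± 0.08, adjusted p = 0.00366). These 8 calls held whichever library was left out. The other 7 did not, namely *MCM5* (0.0909 without *val2* replicate 2), *CDC45* (0.103 without *val2* replicate 1), *ORC1A* (0.13 without *val2* replicate 2), *RPA1B* (0.151 without *val1* replicate 2), *RPA1D* (0.0809 without *val2* replicate 2), *RPA1E* (0.069 without *val1* replicate 2) and AT5G26680 (0.122 without *val1* replicate 1), each with the largest adjusted p over the libraries left out. Without *val1* replicate 2 the counts were 5 higher and 8 lower, and without *val2* replicate 2 they were 5 higher and 3 lower. With libraries scaled by size alone they were 16 higher and 3 lower, and the median of all tested genes moved from 0.01 to 0.15.

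For the remaining 34 genes no difference passed the test, which does not show that they were alike. The intervals give the range of differences that 2 libraries a genotype allow. For the MCM2-7 ring apart from *MCM5* the 95% interval of the log2 difference was narrow, from −0.05 to 0.28 for *MCM2*, −0.12 to 0.21 for *MCM3*, −0.19 to 0.19 for *MCM4*, −0.22 to 0.25 for *MCM6* and −0.20 to 0.15 for *MCM7*. It was wider for the scarce genes, such as *MCM10* (−0.17 to 0.59) and *DEL1* (−0.20 to 0.51).

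**Figure D4:**
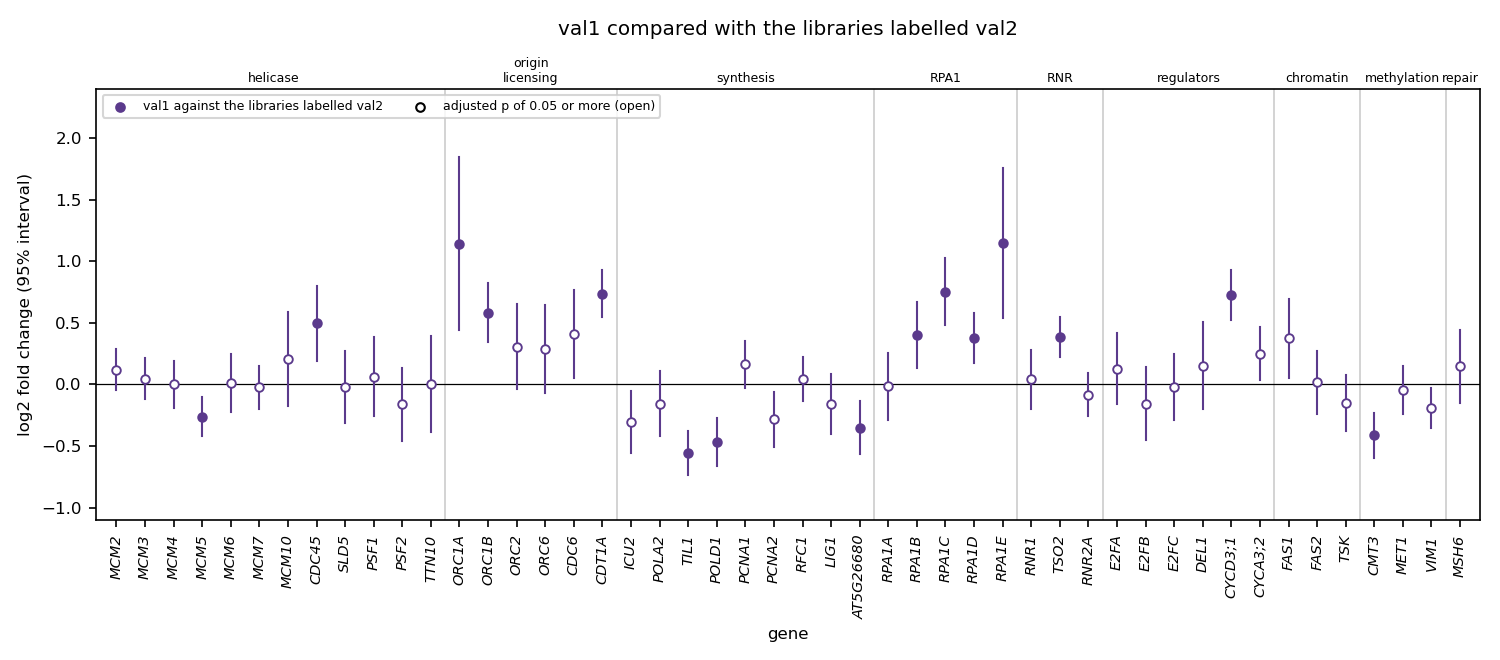
Log2 fold change of 48 of the 49 genes in *val1* against the *val2*-labelled libraries, with 95% intervals as vertical lines and filled circles where the adjusted p was below 0.05. Of the filled circles 10 lie above 0 and 5 below.

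Other genes of the same machinery, from a list also written with earlier results of these data known, mostly moved the same way. Of 26 other replication factors, 20 rose in *val1* and none fell (median log2 fold change 0.60), where 23.6% of all tested genes rose and 22.1% fell. In the *val2*-labelled libraries 18 rose and none fell (0.64), where 8.69% of all tested genes rose and 10.0% fell. They include other subunits of the complexes above. The primase subunits *POLA3* (1.16 ± 0.10 and 1.13 ± 0.10) and *EMB2813* (0.85 and 0.96) rose with polymerase alpha, and the small RPA subunits *RPA2A* (1.15 ± 0.10 and 0.97 ± 0.10) and *RPA3A* (1.28 ± 0.14 and 0.97 ± 0.14) rose with the *RPA1* genes. *CDC6B*, the second *CDC6* gene, rose by 1.33 ± 0.23 and 1.16 ± 0.23, and *CTF18*, of an alternative clamp loader, by 1.05 ± 0.10 and 1.16 ± 0.10. Other subunits, named after their values were seen, did not pass in either, namely *PSF3* of GINS (0.29 and 0.05, adjusted p = 0.235 and 0.899), *RPA3B* (0.11 and 0.27, adjusted p = 0.423 and 0.105) and *POLD2* of polymerase delta (0.35 and 0.42, adjusted p = 0.0578 and 0.0587), and the origin complex gene *ORC4* passed in the *val2*-labelled libraries (0.37, adjusted p = 0.0396) with a value of 0.06 in *val1* (adjusted p = 0.662).

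The other lists of the cell cycle are read against all tested genes, of which 23.6% rose and 22.1% fell in *val1*, and 8.69% rose and 10.0% fell in the *val2*-labelled libraries. Of 16 tested G1/S regulators, 9 rose and 1 fell in *val1* and 5 rose in the *val2*-labelled libraries, with the largest change in *val1* at the D-type cyclin gene *CYCD1;1* (1.56 ± 0.09, adjusted p = 3.2e-06). Of 13 CDK inhibitor and APC/C activator genes, 7 rose and 1 fell in *val1* (median 0.57), and 1 rose and 2 fell in the *val2*-labelled libraries (median 0.03), close to the shares of all tested genes. Compared directly, 6 of the 13 were higher in *val1* than in the *val2*-labelled libraries and 1 was lower, where 17.7% and 18.0% of all tested genes were. The members that moved most in *val1* were the CDK inhibitor genes *KRP7* (1.60 ± 0.23), *SMR2* (1.42 ± 0.25), *KRP2* (1.25 ± 0.14) and *KRP6* (−1.16 ± 0.16). For mitosis, 11 of 22 genes rose in *val1*, with none at 2-fold and a median of 0.30, and 3 rose and 1 fell in the *val2*-labelled libraries, with a median of 0.12. Histone H3.1 and H4 genes, whose products package new DNA, rose in 12 of 13 cases in *val1* (median 0.63) and 10 of 13 in the *val2*-labelled libraries (0.42), but they are near-identical copies whose reads can be shared.

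Of 14 other genes of chromatin assembly and DNA methylation, 6 rose in each comparison with WT and none fell, among them the remodeller *DDM1* (0.51 ± 0.09 and 0.78 ± 0.09) and the third CAF-1 subunit *MSI1* (0.46 ± 0.07 and 0.45 ± 0.07). *VIM5*, a relative of *VIM1*, had 54 and 10 counts in the *val1* libraries and 0 in the other 4. Of 15 tested genes of the DNA damage response, 5 rose and 1 fell in *val1*, and 2 rose in the *val2*-labelled libraries, not far from the same shares of all tested genes. The cell cycle checkpoint kinase *WEE1* rose by 1.24 ± 0.18 and 0.96 ± 0.18, the replication stress kinase *ATR* by 0.67 ± 0.15 and 1.07 ± 0.15, and the transcription factor gene *NAC103* fell by 1.61 on the log2 scale in *val1*.

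**Figure D5:**
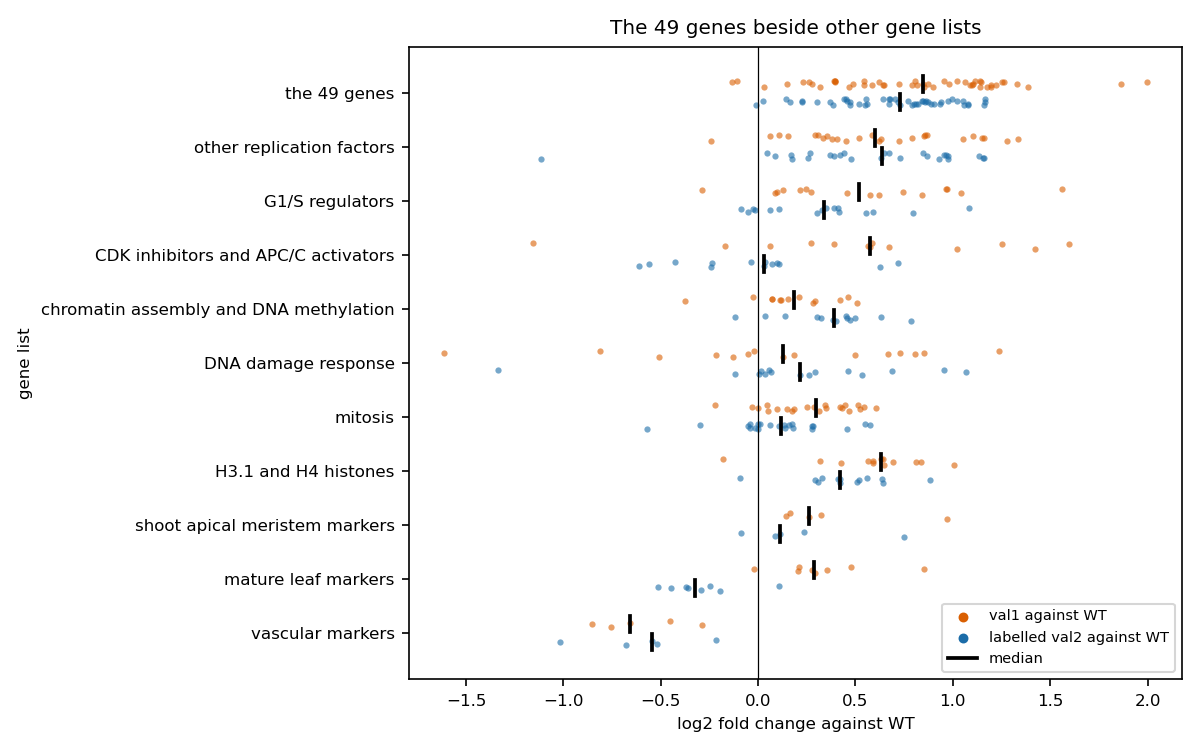
Log2 fold change against WT of each tested gene (points) in *val1* (orange) and in the *val2*-labelled libraries (blue), for the 49 genes and for 10 other lists, with the median of each as a black line. *VIM5*, at 0 in WT, is left out of the points, and the medians of the 49 genes, 0.85 and 0.73, lie to the right of those of all the other lists.

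Genes that mark cell types moved beside these changes. For scale, 23.6% of all tested genes rose and 22.1% fell in *val1*, and 8.69% rose and 10.0% fell in the *val2*-labelled libraries. Of 7 apex genes listed here as meristem markers, not all of them limited to the meristem, 5 were tested. Among these, *ANT* (0.97 ± 0.07) and *CLV1* (0.33 ± 0.08) rose in *val1*, and only *ANT* (0.75 ± 0.07) in the *val2*-labelled libraries. The sum of the 7 was 214 to 224 CPM in WT, 287 to 298 in *val1* and 255 to 276 in the *val2*-labelled libraries, a smaller relative change than that of the 49 genes. *STM*, which marks the meristem itself, was at 58.3 and 58.0 CPM in WT, 65.4 and 64.8 in *val1*, and 70.7 and 66.0 in the *val2*-labelled libraries (0.16 ± 0.07 and 0.23 ± 0.07, adjusted p = 0.0913 and 0.0502). The 8 mature leaf genes went opposite ways, with 7 higher in *val1* and 6 lower in the *val2*-labelled libraries, and sums of 17225 to 18229 CPM in WT, 18988 to 20145 in *val1*, and 14120 to 15034 in the *val2*-labelled libraries. The replication genes were higher in both. Of 5 vascular markers, 4 fell in *val1* and 3 in the *val2*-labelled libraries, with sums of 170 to 177 CPM in WT, 90.2 to 133 in *val1*, and 110 to 116 in the *val2*-labelled libraries. Floral meristem markers stayed at or near 0, at 0.851 CPM or less for all 5 together. The part of these cell type differences in the rise of the replication genes was not tested.

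The genes with an E2F match were compared with those without as a description. Among the 49, the 17 with a match had a median log2 fold change of 0.98 in *val1* and 0.89 in the *val2*-labelled libraries, and those without had 0.80 and 0.62. The 364 tested protein-coding genes with a match outside the 49 rose in 38.5% of cases in *val1*, against 23.8% of those without, and in 24.7% against 8.55% in the *val2*-labelled libraries. In the direct comparison the medians of the 49 genes were 0.02 with a match and 0.05 without.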

How the data were processed

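RNA-seq data of 6 libraries, grouped by the genotype on their labels, were used. The paper's methods name cutadapt for trimming, STAR for mapping to TAIR10, and StringTie with Araport11 for gene abundance (versions not given in the sources used here). The deposited estimated counts are whole numbers and not normalized. The deposited TPM values were scaled by the authors to gene length and to the library, and they cover 16383 genes, 47 of the 49 among them. The values of 1 of the 49 genes and 1 motif window are not reported here, although the counts include them. Of 24369 entries in the table of counts, 77 lack a gene identifier (0.00191% to 0.00266% of a library) and were left out.

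The counts entered edgeR 4.0.16 (R 4.3.3). After filterByExpr and TMM scaling (factors 0.925 to 1.09), the 3 comparisons came from 1 quasi-likelihood fit of a mean for each genotype to all 6 libraries. Genes rose or fell with a Benjamini-Hochberg adjusted p below 0.05 over all tested genes, and DEGs also changed at least 2-fold. Every adjusted p of a gene is from this test unless another tool is named. The SE is the log2 fold change over the root of its F value, with 3 residual degrees of freedom and a biological coefficient of variation of 10.7%. Replicates differed by more than counting error (chi-square per gene 9.13 to 11.5), and p-values measure the spread between these libraries. Strand use in counting is not stated, and 14 of the 49 genes overlap a gene on the other strand.

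The genes, lists and tests were chosen with earlier results of these data known. Values in every library are given for each DEG, the 3 largest rises in *val1* and duplicated genes that are compared. At most 4 genes of a list are named by size of change in a comparison. Further genes are named for other reasons, such as *EMB2813* as a subunit of a complex already described. Gene positions, exon words of 50 bases and motifs come from TAIR10.1 of RefSeq. The alternatives tried were DESeq2 1.42.0 and, in edgeR, its size factors, scaling by library size alone, no filter or a minimum mean of 50 counts, fits of only the 2 genotypes compared, the replicate number as a block and leaving out each library, besides limma 3.58.1 on log2(TPM + 1) and log2(TPM + 0.1) for genes with a mean of at least 1 TPM. Plots were made in matplotlib 3.10.9 (Python 3.11.15).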

Additional observations from a re-analysis of the deposited data

How the results depend on the processing

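With 2 libraries a genotype, and 3 residual degrees of freedom, small changes pass or miss the test by little. No called gene of the 49 changed direction under any alternative tried. Against WT, the count of genes that rose stayed within 1.5 times of 43 in *val1* and 39 in the *val2*-labelled libraries under every alternative. Leaving out 1 library gave 37 to 43 in *val1* and 26 to 39 in the *val2*-labelled libraries, and 6 and 14 genes then lost a call. The median log2 fold change in *val1* was 1.06 with library size alone, where the median of all tested genes moved from 0.04 to 0.25. It was 0.94 with limma on log2(TPM + 1) and 1.02 on log2(TPM + 0.1), and 0.75 to 0.93 without 1 library. With limma the median of all genes in the fit was 0.29 at either pseudocount. The set then lay 0.66 and 0.73 above all genes, against 0.81 in the fit used throughout. In the *val2*-labelled libraries the median of the set was 0.82 with limma on log2(TPM + 0.1), where that of all genes was 0.06.

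The comparison of *val1* with the *val2*-labelled libraries depended more on the setting. Its median was 0.18 with library size alone, and 0.13 with limma at either pseudocount. The median of all genes in the fit moved as well, from 0.01 to 0.15 with library size alone and to 0.11 and 0.12 with limma. The set lay 0.03 above all genes with library size alone and 0.01 above them with limma, against 0.03 in the fit used throughout. Genes higher in *val1* numbered 16 with library size alone and 5 to 11 without 1 library, and genes lower numbered 3 with library size alone, 3 with limma at either pseudocount and 3 to 8 without 1 library. With DESeq2, 7 genes were higher and 5 lower. *CDC45*, *ORC1A* and *RPA1B* then did not pass (adjusted p = 0.0771, 0.0730 and 0.0589 by DESeq2). The DEGs higher in *val1* numbered 1 with DESeq2, 1 with a mean of at least 50 counts, 0 with limma on log2(TPM + 1), 1 on log2(TPM + 0.1) and 0 to 2 without 1 library. The cause was not tested, except that the stricter filter and the filter on TPM leave fewer of the genes, 48 and 46 of 49.

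Libraries that share a replicate number did not deviate together from their genotype means (correlations of 0.0309 to 0.0406 across genes), so the numbers were not taken as pairs. With the replicate block, 43 genes rose in *val1* and 39 in the *val2*-labelled libraries, and 10 were higher and 7 lower in *val1* than in the *val2*-labelled libraries.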

Other observations

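Other subunits of the complexes, chosen after their values were seen, add to the picture of which parts moved. *CDT1B*, the second *CDT1* gene, had a log2 fold change of 0.62 (adjusted p = 0.00264) in *val1*, 0.18 (adjusted p = 0.349) in the *val2*-labelled libraries, and a difference of 0.44 (adjusted p = 0.0171) between them. *DPB2*, the partner of *TIL1* in polymerase epsilon, rose by 0.87 in *val1* and 0.85 in the *val2*-labelled libraries, while *TIL1* itself had −0.11 and 0.45. *ETG1*, a replisome factor that binds the MCM ring, rose by 1.1 and 0.96. *RFC5*, of the clamp loader, had 0.15 and 0.17 (adjusted p = 0.124 and 0.146), whereas *RFC3* rose by 0.73 and 0.93. The clamp loader genes *RFC2* (0.41 and 0.63) and *RFC4* (0.31 and 0.44) rose in both comparisons with WT as well. *RBR1*, the retinoblastoma protein gene that holds E2F factors in check, rose by 0.24 ± 0.07 in *val1* (adjusted p = 0.0256) and 0.41 ± 0.07 in the *val2*-labelled libraries (adjusted p = 0.0073).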
